A study of Homo sapiens with 22 samples.

Results

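The DNA replication genes are 42 human genes whose proteins recognise replication origins, load and start the replicative helicase, and copy both strands. They are 42 of the 59665 genes of the RefSeq table for GRCh38.p14. A deposited region was assigned to a gene when it overlapped the gene's RefSeq span extended by 2 kb on each side. By this rule the genes held 135 of 95436 H3K27ac regions, 160 of 138731 Jun regions, 95 of 66168 CTCF regions and 148 of 109111 Rad21 regions. Every gene had at least 1 H3K27ac region and at least 1 Jun region, while 40 had a CTCF region and 41 had a Rad21 region.

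Origins are marked by the origin recognition complex, which together with CDC6 and CDT1 loads the ring-shaped MCM helicase onto DNA in G1. The kinase CDC7 with its partner DBF4, CDC45 and the GINS complex then turn the ring into a moving helicase, and primase, polymerases, the clamp PCNA and its loader RFC, the single-strand binder RPA, FEN1 and LIG1 complete synthesis. Many of these genes are transcribed in cycling cells under the control of E2F factors, and their products decline when cells leave the cycle.

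The samples were wild-type K562 cells, an established human leukemia line, treated for 0, 6 or 72 h with PMA at 25 nM. PMA is a phorbol ester that drives these cells toward megakaryocytes. Untreated libraries (0 h) are the reference of each comparison with them, and all groups share the same line, genotype and formaldehyde fixation. CUT&RUN, an assay in which antibody-directed nuclease releases DNA beside a mark or protein, was done for H3K27ac (an acetylated histone found at active promoters and enhancers), Jun (one partner in a dimeric factor known as AP-1), CTCF (an insulator protein) and Rad21 (a subunit of cohesin). H3K27ac, Jun and CTCF were sampled at all 3 times and Rad21 at 0 and 72 h, with 2 libraries per group and 22 in all. The labels do not say whether these came from separate cultures, so p-values measure the spread between these libraries, which may be technical. In a bulk assay of this kind, fewer cells that carry a mark and less of the mark per cell cannot be told apart.

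Counts in regions summed to between 12634261 and 27266241 per H3K27ac library, 4766421 and 18883962 per Jun library, 2553677 and 6068421 per CTCF library, and 4398797 and 7285286 per Rad21 library. The share of Jun counts on the mitochondrial chromosome was 24% and 27.7% before PMA and 9.07% and 8.58% after 72 h. The share of H3K27ac counts in regions where every library had a peak was 67.8% and 68% before PMA and 53.4% and 54% after 72 h. Of 8 genes that mark K562 cells, 7 had an H3K27ac peak in both 0 h libraries (all but NFE2).

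Promoter sequence was in the RefSeq table for 36 of the 42 genes, and RPA2, RPA3, GINS4, MCM4, POLD3 and MCM5 had no entry. The 220 bases around the start are printed for 8 genes, from 200 bases before it to 20 after it, 5′ to 3′ on the gene's strand, in GRCh38.p14 coordinates. GINS2 and POLE are shown because their H3K27ac fell far, MCM6, MCM7, PCNA and CDC6 as widely studied E2F-controlled genes, and POLA2 and GINS3 because the H3K27ac summed over them rose. Capitals mark the letters TTTCCCGC, TTTGGCGC, TTTCGCGC or TTTGCCGC on either strand, which are forms of the E2F motif. In MCM6 matches on the 2 strands overlap, so each capital run holds more than 1 match. All 8 genes shown have a match, which is not true of all 36 promoters. POLD2 fell further over the gene than POLE (−1.92 and −1.67 at 72 h), has no match and is not shown.
GINS2 (chr16:85688935-85689154, minus strand): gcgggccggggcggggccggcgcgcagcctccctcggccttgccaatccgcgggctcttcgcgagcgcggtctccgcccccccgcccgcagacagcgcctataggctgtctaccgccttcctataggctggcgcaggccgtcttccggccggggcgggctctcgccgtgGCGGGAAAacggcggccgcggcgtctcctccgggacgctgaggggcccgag
POLE (chr12:132687323-132687542, minus strand): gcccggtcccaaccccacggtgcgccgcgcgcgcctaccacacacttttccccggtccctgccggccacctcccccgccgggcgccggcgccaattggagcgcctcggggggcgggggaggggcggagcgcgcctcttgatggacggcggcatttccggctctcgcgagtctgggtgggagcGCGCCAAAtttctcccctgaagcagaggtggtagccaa
MCM6 (chr2:135876424-135876643, minus strand): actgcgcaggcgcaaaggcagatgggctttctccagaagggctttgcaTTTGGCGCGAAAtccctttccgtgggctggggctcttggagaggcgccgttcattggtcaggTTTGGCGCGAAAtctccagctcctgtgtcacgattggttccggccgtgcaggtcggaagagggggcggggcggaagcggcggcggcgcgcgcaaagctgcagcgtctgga
MCM7 (chr7:100101378-100101597, minus strand): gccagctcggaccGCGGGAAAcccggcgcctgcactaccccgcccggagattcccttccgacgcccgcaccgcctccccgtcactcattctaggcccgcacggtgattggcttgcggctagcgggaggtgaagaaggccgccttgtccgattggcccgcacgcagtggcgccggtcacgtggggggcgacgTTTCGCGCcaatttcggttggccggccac
PCNA (chr20:5126603-5126822, minus strand): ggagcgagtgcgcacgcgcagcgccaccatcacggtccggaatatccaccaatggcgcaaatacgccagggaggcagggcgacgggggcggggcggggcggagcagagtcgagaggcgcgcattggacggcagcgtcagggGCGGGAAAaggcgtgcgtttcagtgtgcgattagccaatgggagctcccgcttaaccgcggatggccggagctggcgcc
CDC6 (chr17:40287679-40287898, plus strand): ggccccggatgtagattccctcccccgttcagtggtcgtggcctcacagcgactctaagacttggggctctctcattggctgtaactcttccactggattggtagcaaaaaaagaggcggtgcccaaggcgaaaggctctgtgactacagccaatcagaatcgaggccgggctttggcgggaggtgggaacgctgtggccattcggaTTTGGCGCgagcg
POLA2 (chr11:65261762-65261981, plus strand): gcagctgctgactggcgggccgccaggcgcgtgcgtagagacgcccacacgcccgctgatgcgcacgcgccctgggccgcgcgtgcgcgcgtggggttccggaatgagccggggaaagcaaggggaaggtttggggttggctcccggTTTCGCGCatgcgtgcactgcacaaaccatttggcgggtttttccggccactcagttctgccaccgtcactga
GINS3 (chr16:58392271-58392490, plus strand): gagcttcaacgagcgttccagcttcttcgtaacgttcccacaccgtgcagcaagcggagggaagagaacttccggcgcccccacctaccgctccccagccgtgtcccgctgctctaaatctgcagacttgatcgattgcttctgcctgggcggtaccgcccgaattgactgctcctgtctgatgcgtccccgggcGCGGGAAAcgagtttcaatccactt
In the full window of 250 bases before to 50 after the start, these letters were present in 16 of the 36 promoters (44.4%), against 908 of 27305 promoters in the table (3.33%). The letters CCAAT, the binding motif of NF-Y, were in 19 of the 36 (52.8%) against 35.7% of all promoters. The AP-1 letters TGANTCA were in 1 of the 36, GINS1, against 7.76% of all. A match describes letters and not a bound site.

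H3K27ac was lower over most replication genes at both later times. Counts were summed over each gene's regions and scaled by library size with TMM factors (as CPM, edgeR's unit of counts relative to the library), and a gene was called at an adjusted p under 0.05 in edgeR's quasi-likelihood test with Benjamini-Hochberg adjustment over all genes tested. At 72 h against 0 h, 37 of 42 genes fell and 2 rose, against 54.1% of all 27675 genes lower and 32.4% higher. Their median log2 fold change was −1.09, and that of all genes −0.40. At 6 h, 32 fell and 4 rose (median −0.50), where 44.1% of all genes were lower and 26.6% higher (median −0.18). Between 6 h and 72 h, 36 fell and 1 rose (median −0.50), against 41.2% lower and 29% higher among all genes (median −0.14).

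The number of calls, and for some genes the direction, depended on how libraries were scaled. Total counts in place of TMM gave 36 lower and 5 higher at 72 h and 20 lower and 6 higher at 6 h. Total counts without the mitochondrial chromosome gave 36 lower and 4 higher at 72 h and 20 lower and 6 higher at 6 h. Factors computed on regions where every library had a peak (shared peak regions) gave 29 lower and 7 higher at 72 h, 17 lower and 7 higher at 6 h, and 22 lower and 3 higher between 6 h and 72 h. The shares of all genes above are from TMM and do not apply to these counts. Under these 4 scalings the median of all genes at 72 h lay between −0.40 and 0.21, and the median of the replication genes lay 0.69 below it each time. The median of all genes lay between −0.18 and 0.17 at 6 h, and between −0.25 and 0.12 from 6 h to 72 h. A change of scaling shifts all genes by nearly the same amount, so the steady gap is no test of the scaling. With other count filters and gene windows the gap (replication genes minus all genes) lay between −0.69 and −0.59. At 72 h 32 genes were below 0 and 4 above 0 in all 4 scalings, and 6 changed sign: MCM5, MCM7, ORC4, CDC6, RFC2 and RPA2. At 6 h 26 were below 0 and 4 above 0 in all 4, and 12 changed sign. Between 6 h and 72 h 34 were below 0 and 2 above 0 in all 4, and 6 changed sign. Folds below are from TMM unless another scaling is named.

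**Figure D1:**
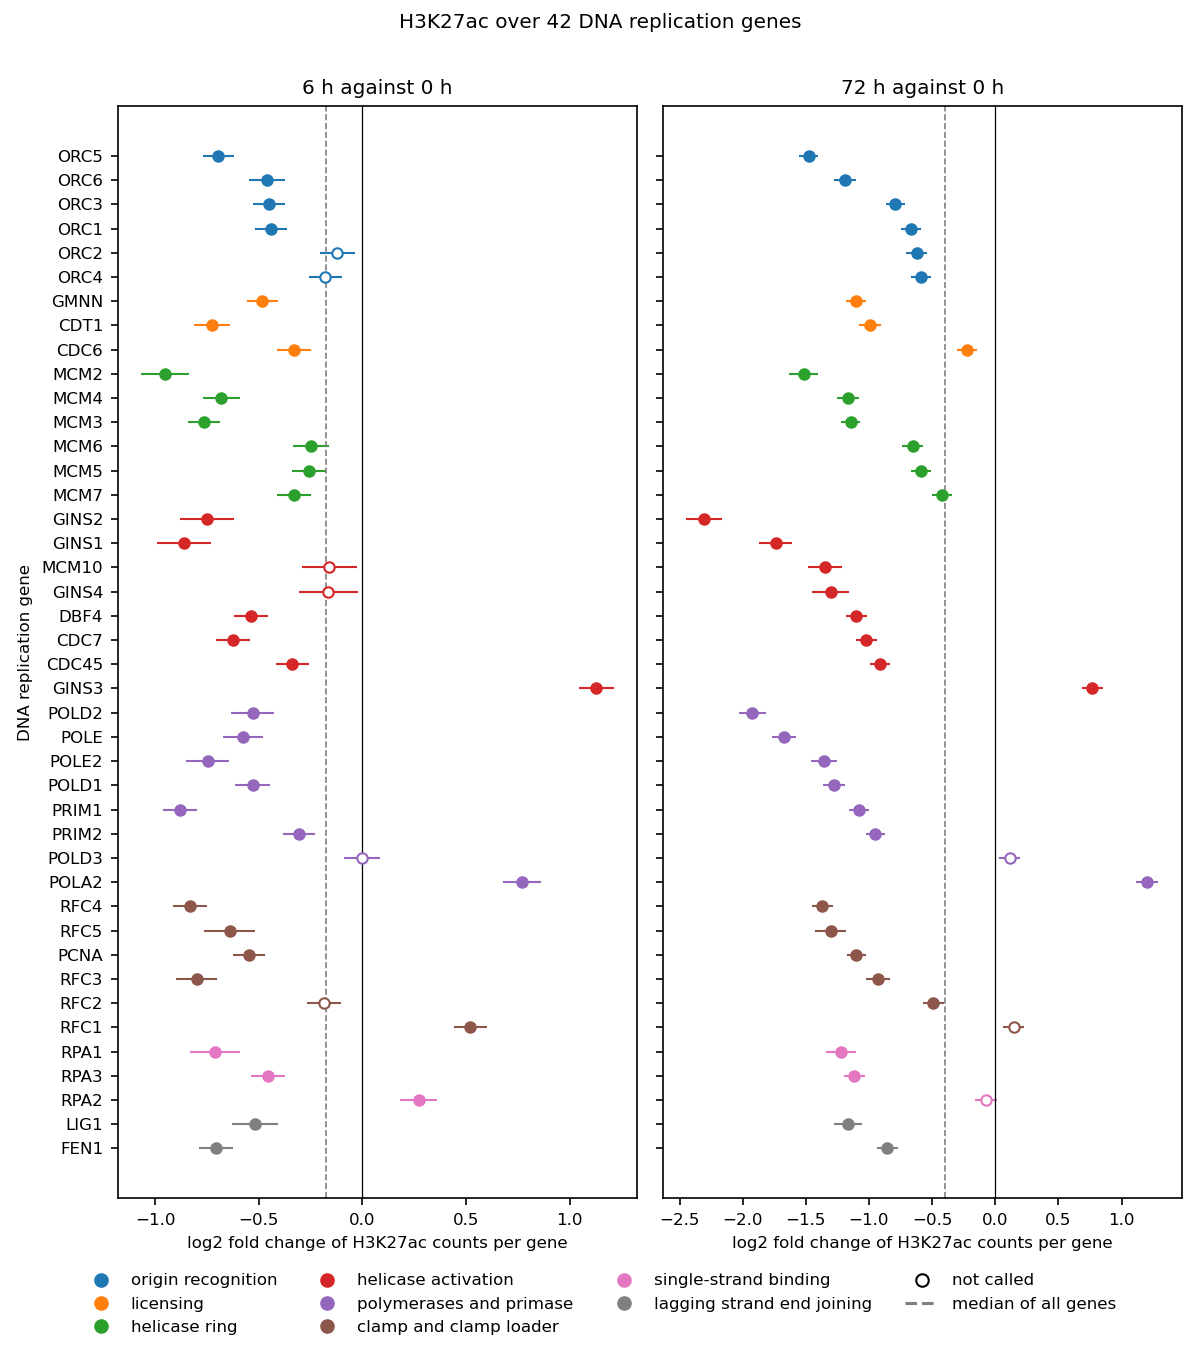
Each point is the log2 fold change of H3K27ac counts summed over 1 of the 42 genes, with its standard error, coloured by role; the left panel sets 6 h and the right panel 72 h against 0 h, open points were not called, and the dashed line is the median of all genes tested. At 72 h POLA2 (1.20) and GINS3 (0.77) stand to the right of 0 and GINS2 (−2.31) lies furthest to the left.

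All 6 genes of the origin recognition complex had lower H3K27ac at 72 h with TMM. With factors from shared peak regions ORC1 (−0.06), ORC2 (−0.01) and ORC4 (0.02) lay near 0 and were not called. ORC3, ORC5 and ORC6 were called lower in every scaling. ORC5, a subunit of the complex's core, gave 102 and 98 CPM before PMA, 62.2 and 61 after 6 h and 36 and 35.7 after 72 h. The 3 times did not overlap, and each was below the one before. The log2 fold change of ORC5 at 72 h was −1.48 ± 0.08 (SE, adjusted p = 5.14e-13). ORC6, the smallest subunit, fell by 1.19 on the log2 scale, and its single region also covers the start of VPS35. ORC1, the subunit that binds ATP and recruits the others, gave 167 and 161 CPM untreated, then 118 and 124 after 6 h and 102 and 104 after 72 h, a log2 fold change of −0.67 ± 0.08 (adjusted p = 1.03e-07). ORC3 (−0.79), ORC2 (−0.62) and ORC4 (−0.59) fell by amounts close to that of ORC1. At 6 h 4 of the 6 had already fallen, and ORC2 (−0.12) and ORC4 (−0.18) were not called. Each of the other 3 scalings called ORC2 higher (0.21 to 0.23). ORC4 turned to 0.15 with total counts, not called, and was called higher with shared peak regions (0.17). Of the 4, ORC5 kept its call at 6 h in the other 3 scalings, while ORC1 (−0.10), ORC3 (−0.12) and ORC6 (−0.13) lost theirs with total counts and with both further scalings.

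ORC5 lost most of its H3K27ac inside the gene. The region over its start fell less than 3 regions further in, which fell by 3.00 to 3.30 on the log2 scale. The largest of these, chr7:104174870-104176530, held 360 and 384 counts before PMA, 155 and 234 after 6 h and 58 and 56 after 72 h, as raw counts (−3.30 ± 0.17, adjusted p = 1.53e-15). One ORC5 region went the other way, chr7:104123732-104124470, which held 23 and 22 counts before PMA and 99 and 116 after 72 h (1.66 ± 0.30).

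The 3 licensing genes also fell at both later times, CDC6 the least and with a sign that changed with scaling at each time. CDT1, which brings the MCM ring to the origin, gave 145 and 155 CPM untreated, then 82.4 and 98.7 after 6 h and 75.7 and 74.8 after 72 h (−0.996 ± 0.09, adjusted p = 1.63e-09). GMNN, the geminin inhibitor that binds CDT1 after S phase begins, gave 144 and 138 CPM before PMA, 99.8 and 102 after 6 h and 64.1 and 67 after 72 h (−1.10 ± 0.08, adjusted p = 5.23e-11). Neither gene's 72 h libraries reached the level of its 0 h libraries. CDC6, the ATPase that loads the ring with CDT1, gave 63.2 and 66.6 CPM untreated, then 48.4 and 54.7 after 6 h and 55 and 55.9 after 72 h (−0.23 ± 0.08, adjusted p = 0.0123). The CDC6 sum is the balance of opposite changes along the gene: its start region fell by 0.97, and a region within it, chr17:40296040-40296655, rose from 8 and 3 counts to 81 and 76 (3.21 ± 0.45, adjusted p = 4.3e-07). The direction of the CDC6 sum depended on scaling. It turned to 0.01 with total counts, not called, and to 0.38 with factors from shared peak regions, called higher. Its call was also lost with DESeq2 (adjusted p = 0.114), without the second 0 h library (adjusted p = 0.122) and without the first 72 h library (adjusted p = 0.061).

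All 6 subunits of the MCM ring fell at 6 h and at 72 h with TMM. With total counts MCM5, MCM6 and MCM7 turned to 0.08, 0.08 and 0.00 at 6 h, none of them called. With shared peak regions at 72 h MCM5 (0.02) and MCM6 (−0.05) were not called, and MCM7 (0.19) was called higher. MCM2 gave 38.7 and 40.9 CPM before PMA, 17.9 and 22.9 after 6 h and 14.9 and 12.9 after 72 h (−1.52 ± 0.12, adjusted p = 1.98e-10). MCM3 gave 107 and 106 CPM untreated, then 64.5 and 61.1 after 6 h and 46.5 and 49.8 after 72 h (−1.15 ± 0.08, adjusted p = 3.26e-11). MCM4 gave 70.2 and 63 CPM before PMA, 38.4 and 44.3 after 6 h and 30.2 and 29.1 after 72 h (−1.17 ± 0.09, adjusted p = 1.96e-10). In these 3 genes every 6 h and 72 h library lay below both 0 h libraries. The other 3 subunits fell less. MCM5 gave 57.2 and 54.4 CPM untreated, then 47.8 and 45.8 after 6 h and 38.2 and 36.2 after 72 h (−0.59 ± 0.08). MCM6 gave 41.2 and 40.2 before PMA, 33.3 and 35.1 after 6 h and 25.6 and 26.1 after 72 h (−0.65 ± 0.09). MCM7 gave 67.6 and 61.5 untreated, then 49.7 and 52.9 after 6 h and 47.5 and 48.8 after 72 h (−0.42 ± 0.08). Of the 6, MCM7 was the subunit that was not called between 6 h and 72 h with TMM (−0.09, adjusted p = 0.305), and its region covers the AP4M1 start as well. Total counts, with and without the mitochondrial chromosome, called MCM7 lower in this step (−0.19 and −0.20). With shared peak regions MCM3, MCM5, MCM6 and MCM7 were not called in it.

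The MCM5 sum was again the balance of opposite changes. The highest region of MCM5, chr22:35398880-35401147, held 957 and 986 counts before PMA and 514 and 550 after 72 h (−1.46 ± 0.11). Another MCM5 region, chr22:35445870-35446961, rose from 10 and 12 counts at 0 h to 79 and 139 at 6 h and 257 and 246 at 72 h (3.91 ± 0.27, adjusted p = 7.4e-13). MCM3 and MCM6 each had an inner region that rose as well, by 2.66 and 2.39 on the log2 scale at 72 h. The start regions of MCM6 (−0.81) and MCM7 (−0.50) themselves fell less than those of MCM2 (−1.52) and MCM3 (−1.34).

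Helicase activation held both the deepest fall and 1 of the 2 rises. GINS2, a subunit of the GINS complex that ties CDC45 to the MCM ring, gave 23.1 and 23.6 CPM before PMA, 14.7 and 13.2 after 6 h and 4.91 and 4.51 after 72 h (−2.31 ± 0.14, adjusted p = 6.8e-12). GINS1 (−1.74) and GINS4 (−1.30), its partners, fell as well at 72 h. GINS3, the fourth subunit, gave 40.4 and 42.1 CPM untreated, then 84.5 and 95.6 after 6 h and 70.2 and 70.5 after 72 h (0.77 ± 0.08, adjusted p = 3.91e-08). Within this 1 complex, then, 3 genes fell and 1 rose. GINS3 was higher at 6 h (1.13 ± 0.08, adjusted p = 5.32e-10) and then lower at 72 h than at 6 h (−0.36 ± 0.08, adjusted p = 0.000487), a step that was −0.10 and not called with shared peak regions.

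CDC45, the helicase cofactor, lay near 0 at 6 h with total counts other than the mitochondrial chromosome (0.01) and fell in every scaling at 72 h. It gave 333 and 335 CPM before PMA, 260 and 268 after 6 h and 179 and 176 after 72 h (−0.91 ± 0.08, adjusted p = 2.06e-09). The kinase CDC7 (−1.02) and its activator DBF4 fell by similar amounts. MCM10, which is needed for the activated helicase to open DNA, was not called at 6 h (−0.16, adjusted p = 0.281; 0.18 with total counts) and fell by 1.35 at 72 h. GINS4 followed the same order in time, with −0.17 at 6 h (adjusted p = 0.309; 0.17 with total counts).

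Among polymerases and primase 6 of 8 genes fell at 72 h, POLA2 rose and POLD3 was not called. POLD2, a subunit of the lagging-strand polymerase delta, fell by 1.92 on the log2 scale, from 36.7 and 34.2 CPM at 0 h to 24.9 and 24.2 at 6 h and 8.95 and 9.71 at 72 h. POLE, the catalytic subunit of the leading-strand polymerase epsilon, gave 39.4 and 39.5 CPM untreated, then 25.7 and 27.1 after 6 h and 12.2 and 12.6 after 72 h (−1.67 ± 0.10, adjusted p = 3.54e-12). In both genes the 3 times formed 3 separate levels. POLE2 (−1.36), POLD1 (−1.28), PRIM1 (−1.08) and PRIM2 (−0.95) fell too, PRIM1 and PRIM2 being the primase pair; PRIM2 turned to 0.03 at 6 h with total counts. PRIM2 has near-identical copies in the genome, so the placement of its reads is uncertain. POLA2, the regulatory subunit that joins polymerase alpha to primase, gave 70.9 and 75 CPM before PMA, 113 and 136 after 6 h and 163 and 172 after 72 h (1.20 ± 0.09, adjusted p = 1.53e-10). POLD3, with 52.2 and 46.9 CPM before PMA and 51 and 56.3 after 72 h, had overlapping groups with TMM (0.12 ± 0.08, adjusted p = 0.202). Each of the other 3 scalings called it higher, by 0.35 with total counts, with or without the mitochondrial chromosome, and by 0.72 with shared peak regions.

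Of the clamp and its loader, 5 of 6 genes fell at 72 h. PCNA, the sliding clamp, gave 104 and 103 CPM untreated, then 72.5 and 69.2 after 6 h and 48.9 and 47.5 after 72 h (−1.10 ± 0.08, adjusted p = 4.52e-11). Its regions fell by unequal amounts: chr20:5126111-5126586, just inside the start, held 250 and 280 counts before PMA and 103 and 87 after 72 h (−2.07 ± 0.17). The clamp-loader subunits RFC4 (−1.37), RFC5 (−1.30), RFC3 (−0.93) and RFC2 (−0.49) fell, RFC2 turning to 0.12 with factors from shared peak regions. RFC1, the large subunit, gave 75.4 and 73.1 CPM before PMA, 102 and 111 after 6 h and 79.3 and 84.8 after 72 h. It was higher at 6 h (0.52 ± 0.08, adjusted p = 1.04e-05) and was not called at 72 h with TMM (0.14 ± 0.08, adjusted p = 0.0957). The other 3 scalings called RFC1 higher at 72 h, by 0.38 with total counts, with or without the mitochondrial chromosome, and by 0.75 with shared peak regions.

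RFC1 too was a sum of opposing regions. A region 46.4 kb into the gene, chr4:39318615-39321315, rose from 336 and 384 counts to 756 and 1186 at 6 h and 1487 and 1646 at 72 h (1.53 ± 0.11, adjusted p = 3.4e-12). Another, chr4:39326475-39327292, held 80 and 123 counts before PMA and 28 and 22 after 72 h (−2.60 ± 0.29), and the start region was called lower.

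RPA1, the large subunit of the single-strand binding trimer, gave 24 and 25.4 CPM untreated, then 15.6 and 14.7 after 6 h and 11.2 and 10.1 after 72 h (−1.22 ± 0.12, adjusted p = 1.03e-08). RPA3, the smallest subunit, fell by 1.12, although its regions lie in the span of UMAD1 as well. RPA2, the middle subunit, was higher at 6 h (0.27 ± 0.09, adjusted p = 0.0113) and was not called at 72 h with TMM (−0.07, adjusted p = 0.436), while total counts (0.16) and shared peak regions (0.54) called it higher. LIG1, the ligase that seals Okazaki fragments, gave 27.1 and 30.5 CPM before PMA, 19.2 and 20.9 after 6 h and 13.1 and 12.5 after 72 h (−1.17 ± 0.11, adjusted p = 6.2e-09). FEN1, the nuclease that trims their flaps, fell by 0.86 with TMM, most of it by 6 h (−0.71), and was not called between 6 h and 72 h (−0.15, adjusted p = 0.118). This timing depended on scaling. With total counts FEN1 changed by −0.37 by 6 h and by −0.25 afterwards, both called. With shared peak regions the later step was 0.11 and not called.

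The fall was most uniform at the gene starts. A start region is the deposited region within 1000 bases of the RefSeq start with the highest mean CPM, and 35 genes had one for H3K27ac. At 72 h, 34 of the 35 were lower and 1 was higher, against 68.1% lower and 17.2% higher of the 10203 start regions of all genes (medians −1.10 and −0.65). At 6 h, 30 were lower and 1 was higher, against 49.5% and 15.7% of all (medians −0.57 and −0.31). With factors from shared peak regions 29 were lower at 72 h and 19 at 6 h. The shares of all starts are from TMM and do not apply to these 2 counts. The 1 start region that was higher at both times was that of GINS3, with 36 and 38.5 CPM untreated, then 53.6 and 62.1 after 6 h and 47 and 48.5 after 72 h (0.36 ± 0.11 at 72 h, adjusted p = 0.00383). The GINS2 start region went from 20.1 and 19.2 CPM to 12 and 11.2 at 6 h and 4.04 and 3.24 at 72 h (−2.43 ± 0.16, adjusted p = 2.5e-13). POLE (−1.92), POLD2 (−1.92), GINS1 (−1.74) and POLE2 (−1.72) had the next largest falls at the start. The smallest called falls were those of ORC4 (−0.33), RFC2 (−0.46) and MCM7 (−0.50), each smaller than the range of the all-gene median over the 4 scalings (−0.40 to 0.21). The POLA2 start fell by 0.97 although the sum over the gene rose. Regions are wide relative to the distance between divergent genes, and 14 of the 42 highest H3K27ac regions also cover the start of another gene.

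**Figure D2:**
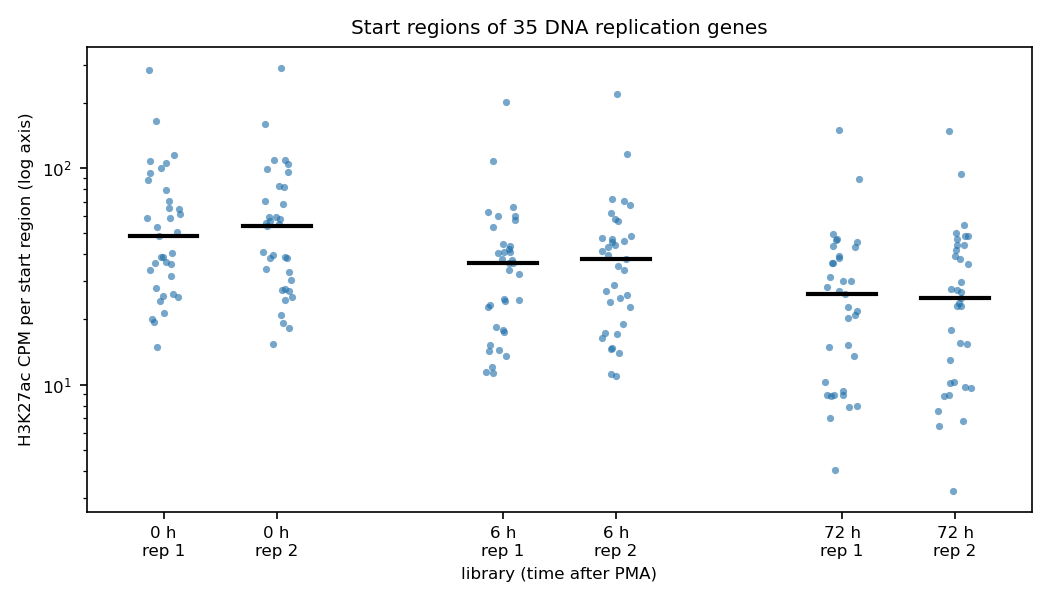
Each point is the H3K27ac level (CPM, log axis) of 1 start region in 1 library, for 35 genes and 6 libraries, and the bar is the library's median. The bars of both 72 h libraries lie below those of both 0 h libraries, and GINS2 is the lowest point in each 72 h library, at 4.04 and 3.24.

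Jun was lower at the same starts at 72 h. Of 33 genes with a Jun start region, 31 were lower and 0 higher by edgeR at 72 h (also 31 and 0 at an unadjusted p under 0.05), against 61.9% lower and 9.86% higher of the 9594 start regions of all genes (medians −1.32 and −0.95). GINS3 (0.31) and ORC5 (−0.24) were the 2 that were not called. At 6 h, 10 were lower and 0 higher by edgeR (14 and 0 at an unadjusted p under 0.05), against 25.1% and 7.1% of all. These counts depended on scaling: at 72 h total counts gave 19 lower and 1 higher, and factors from shared peak regions gave 14 lower and 1 higher. The shares of all starts are from TMM and do not apply to the counts under other scalings.

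Summed over genes, Jun fell over 32 of the 42 and rose over 2 at 72 h, against 45.4% lower and 24% higher of 31501 genes (medians −0.71 and −0.34). At 6 h it fell over 11 and rose over 4, against 24.7% and 16.4% of all. Without the second 0 h Jun library 8 fell and 1 rose at 6 h, and 5 start regions were lower. Scaling moved this split as well. At 72 h total counts gave 11 lower and 7 higher, with medians of −0.14 for the replication genes and 0.24 for all genes. Total counts without the mitochondrial chromosome gave 24 lower and 5 higher, with medians of −0.44 and −0.07. The shares of all genes above are from TMM and do not apply here. Factors from shared peak regions gave 7 lower and 11 higher, with medians of 0.08 for the replication genes and 0.48 for all genes. Under the 4 scalings the replication genes' median lay 0.37 to 0.39 below that of all genes, a gap that scaling can hardly move. Of the 42 genes, 19 were below 0 and 6 above 0 at 72 h in all 4 scalings, and 17 changed sign.

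ORC6, the smallest origin recognition subunit, gave 26.4 and 29 CPM of Jun before PMA, 9.25 and 17.7 after 6 h and 8.76 and 9.38 after 72 h (−1.61 ± 0.19, adjusted p = 5.62e-08). PCNA gave 37.3 and 42.4 CPM at 0 h, 25.9 and 27.1 at 6 h, and 15.9 in both libraries at 72 h (−1.32 ± 0.13, adjusted p = 5.07e-09). RPA3 gave 30.5 and 33.1 CPM untreated, then 12.4 and 18.8 after 6 h and 13.3 and 13.8 after 72 h (−1.23 ± 0.16). In all 3 genes both later times lay below 0 h. GINS3 gave 9.15 and 13.3 CPM before PMA, 37.7 and 43.3 after 6 h and 28.4 and 24 after 72 h (1.22 ± 0.17, adjusted p = 1.04e-06), the reverse of the other GINS genes, of which GINS2 fell by 2.29. POLE2 was the other gene with more Jun at 72 h, 2.61 and 2.71 CPM at 0 h against 6.2 and 6.34 (1.23 ± 0.31, adjusted p = 0.00105). MCM7 (0.50), MCM4 (0.49), POLA2 and GINS3 were the 4 with more Jun at 6 h.

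Regions away from the starts did not follow a single direction. Of 86 other H3K27ac regions of these genes, 35 were higher, 36 lower and 15 not called at 72 h (median −0.17), against 43.3% higher and 38.3% lower of all 94534 regions. At 6 h 37 were higher and 12 lower (median 0.59), against 32.3% and 26.4% of all. The share that rose at 72 h was thus close to that of regions in general. Jun had 20 of 98 such regions higher and 28 lower at 72 h, against 29% higher and 27.4% lower of all 125128 regions, starts included.

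The 35 higher H3K27ac regions lay in 18 genes, and 29 of them overlapped a Jun region, of which 15 were higher and 2 lower in Jun. Over all 38680 H3K27ac regions that were higher at 72 h and lay away from every RefSeq start, 84% overlapped a Jun region, and of those 62% were higher and 6.04% lower in Jun. Of the 36 lower ones, also in 18 genes, 18 overlapped a Jun region, of which 10 were lower in Jun and 8 not called. Over all 27630 such lower regions 52.9% overlapped a Jun region, and of those 77.5% were lower in Jun. Rad21, with 16.9% of its 82818 regions higher and 6.41% lower, had a region over 12 of the higher ones (9 higher in Rad21 and 3 not called) and 15 of the lower ones (1 higher, 5 lower). Over all regions of these kinds, 57% of the higher ones with a Rad21 region were higher in Rad21, and 20.8% of the lower ones were lower. CTCF, with 4.21% of its 56688 regions higher, overlapped 6 of the higher ones, 3 of them higher in CTCF, against 19.6% over all higher H3K27ac regions with a CTCF region. The member regions lie away from the gene's own start only and may cover the start of another gene, so they are not defined like the regions over all genes. These pairings were formed after the H3K27ac calls were seen and are descriptive.

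**Figure D3:**
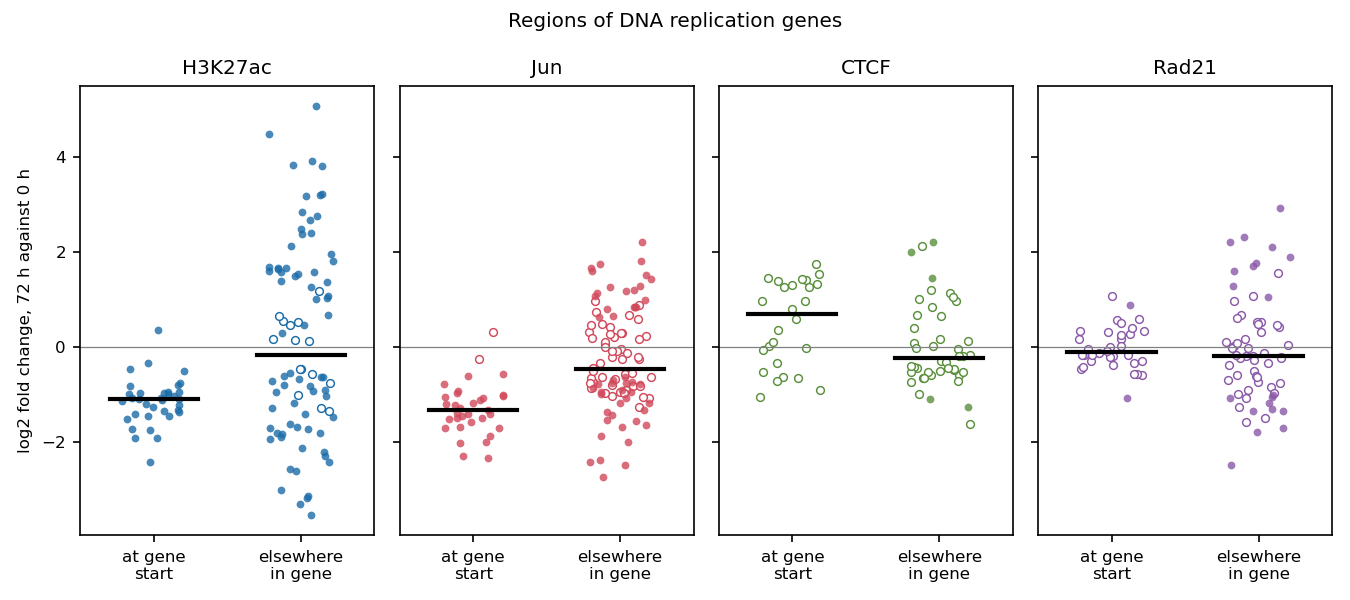
Each point is the log2 fold change of 1 region at 72 h against 0 h, in a panel per antibody, split into regions at a gene start and regions elsewhere in the gene; filled points were called, open points were not, and bars are medians. H3K27ac and Jun at starts lie almost wholly below 0 (34 of 35 and 31 of 33 called lower), H3K27ac elsewhere spreads to both sides (35 higher, 36 lower), and most CTCF and Rad21 points are open.

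POLA2 showed the split most fully. Counts at single sites are raw, and the Jun libraries differ in depth, so the fold changes and not the raw counts compare times. From the start, where H3K27ac fell, 6 inner regions all rose at 72 h, by 1.96 to 3.83 on the log2 scale. At chr11:65279251-65280854, 18.1 kb into the gene, H3K27ac counts were 70 and 66 untreated, then 372 and 748 after 6 h and 1310 and 1622 after 72 h (3.83 ± 0.17, adjusted p = 1.56e-16). Every later library there exceeded both 0 h libraries. Jun at that site went from 91 and 109 counts to 154 and 226 and then 707 and 782 (1.21 ± 0.19, adjusted p = 2.67e-05). Rad21 rose from 10 and 11 counts before PMA to 103 and 67 after 72 h (2.93 ± 0.39, adjusted p = 5.1e-06). CTCF had 7 and 4 counts before PMA, 14 and 5 after 6 h and 31 and 43 after 72 h, a low-count change close to the threshold (2.01 ± 0.59, adjusted p = 0.0479). About 14 kb in, the antibodies parted: H3K27ac at chr11:65275205-65276669 rose by 2.84 and Rad21 at chr11:65274939-65275735 rose by 1.06, while Jun at chr11:65275100-65275755 was lower.

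CDC45 held the second site at which all 4 antibodies were higher, although the gene's H3K27ac sum fell. At chr22:19497089-19497943, 17.6 kb from the start, H3K27ac counts were 23 and 33 untreated, then 139 and 136 after 6 h and 239 and 233 after 72 h (2.48 ± 0.24, adjusted p = 6.19e-10). Rad21 there rose from 23 and 18 counts to 120 and 93 (2.32 ± 0.33, adjusted p = 1.3e-05). CTCF went from 9 and 9 counts to 26 and 14 at 6 h and 39 and 110 at 72 h (2.20 ± 0.45, adjusted p = 0.0119). Jun went from 46 and 34 counts to 46 and 55 and then 218 and 247 (0.85 ± 0.24, adjusted p = 0.00433). A few kilobases away the same gene lost H3K27ac: chr22:19502266-19502998 held 58 and 66 counts before PMA and 32 and 38 after 72 h (−1.41 ± 0.29).

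GINS3 rose along its length. At chr16:58399392-58400760, H3K27ac counts were 34 and 27 before PMA, 288 and 395 after 6 h and 447 and 401 after 72 h (3.20 ± 0.19, adjusted p = 3.62e-14). Jun at this site had 26 and 31 counts untreated, then 96 and 183 after 6 h and 416 and 427 after 72 h (2.20 ± 0.25, adjusted p = 5.15e-07). Rad21 had 9 and 8 counts before PMA and 32 and 22 after 72 h (1.59 ± 0.53, adjusted p = 0.0279), and CTCF missed the threshold (2.13 ± 0.64, adjusted p = 0.0515).

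GMNN went the other way: CTCF at 6 h and Rad21 at 72 h were higher where H3K27ac and Jun were lower at 72 h. At chr6:24777422-24777795, 2671 bases from the start, CTCF counts were 36 and 48 before PMA, 226 and 242 after 6 h and 76 and 269 after 72 h. Both 6 h libraries were far above 0 h (2.72, adjusted p = 0.000475), and the 72 h pair was spread too widely to be called (1.14 ± 0.37, adjusted p = 0.0683). Rad21 in the same interval rose from 86 and 65 counts to 294 and 366 (2.11 ± 0.27, adjusted p = 2.88e-06). H3K27ac in the overlapping region fell by 0.67 at 72 h, and Jun fell by 0.90. At the GMNN start Rad21 fell, from 123 and 76 counts to 36 and 58 (−1.08 ± 0.32, adjusted p = 0.0158), as did H3K27ac (−1.26) and Jun (−1.45).

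**Figure D4:**
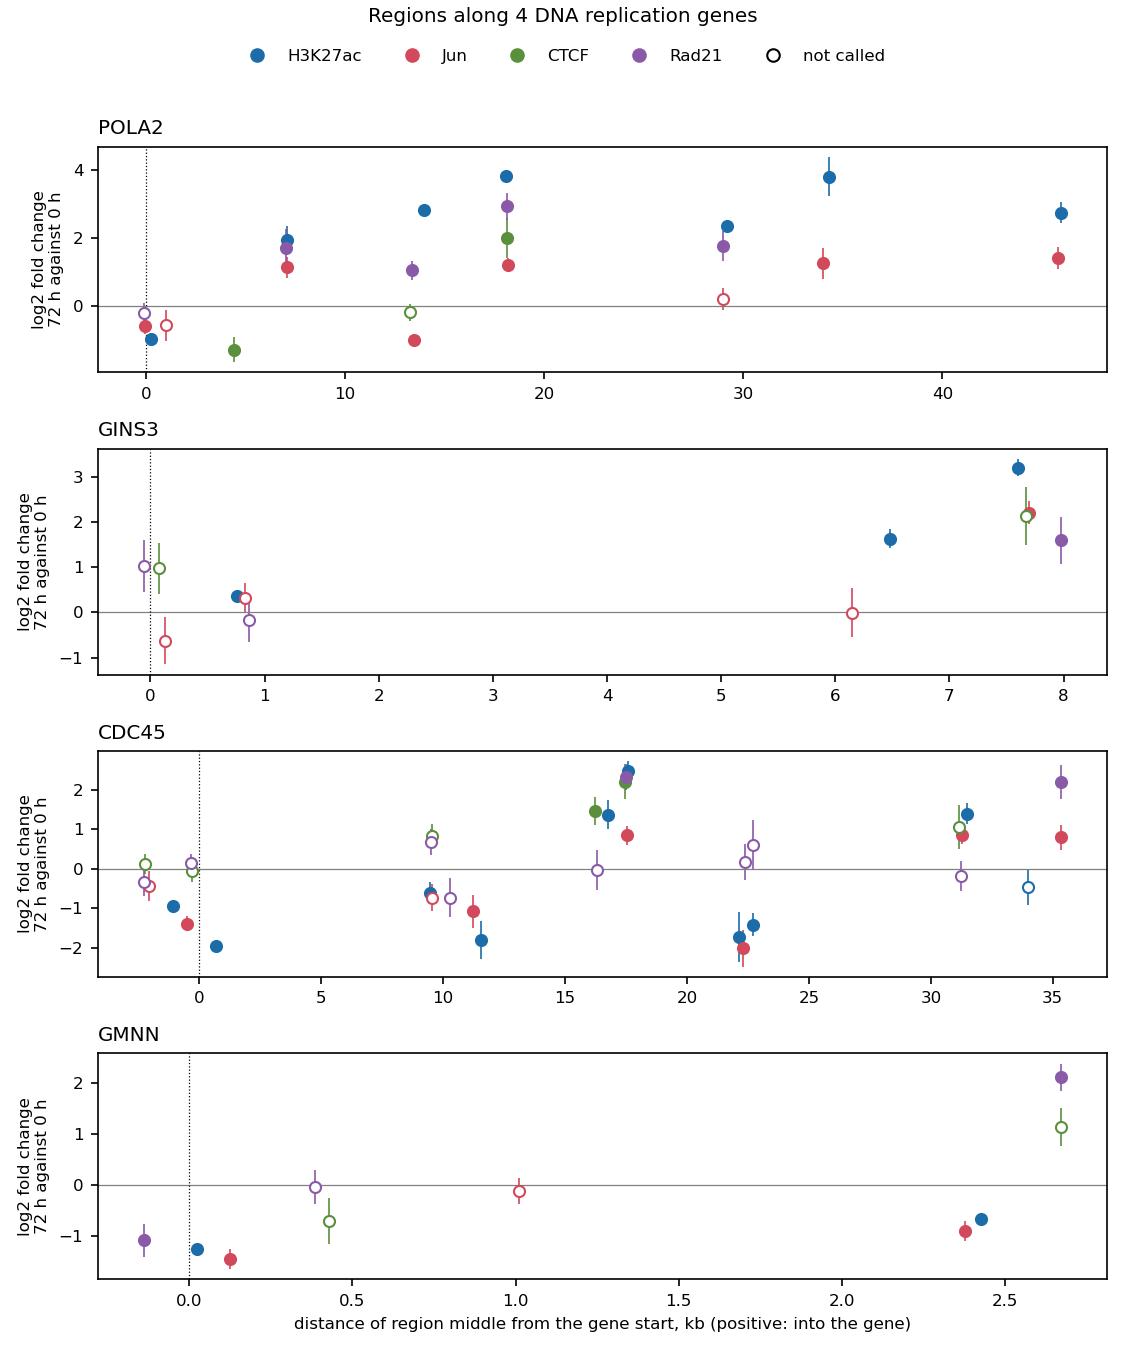
Points give the log2 fold change of each region at 72 h against 0 h with its standard error, against the distance of the region's middle from the gene start in kb, for POLA2, GINS3, CDC45 and GMNN; colours are antibodies and open points were not called. In POLA2 and CDC45 H3K27ac is below 0 at the start and above 0 near 18.1 and 17.6 kb, and in GMNN Rad21 is below 0 at the start (−1.08) and above 0 at the right edge (2.11).

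CTCF summed over genes changed at few replication genes. Of 37 tested, GMNN alone rose at 6 h and 0 fell by edgeR, against 2.18% higher and 1.12% lower of 24355 genes. At an unadjusted p under 0.05, 3 were higher and 1 lower, and DESeq2 called 1 higher and 0 lower. GMNN gave 17 and 24.9 CPM of CTCF untreated, then 77.9 and 101 after 6 h and 20.7 and 44.1 after 72 h (2.11 ± 0.28 at 6 h, adjusted p = 0.000111). At 72 h 3 rose and 2 fell, against 6.18% and 7.68% of all, shares of the same order. MCM7 gave 6.76 and 5.34 CPM before PMA and 21 and 16.8 after 72 h (1.61 ± 0.35, adjusted p = 0.00696), and GINS3 gave 4.76 and 2.85 before PMA and 11.5 and 10.4 after 72 h (1.48 ± 0.43, adjusted p = 0.029). Both were called higher in all 4 scalings. CDC45 gave 81.1 and 79.4 CPM before PMA and 111 and 117 after 72 h (0.51 ± 0.16, adjusted p = 0.0469), and ORC2 gave 45.6 and 44.9 before PMA and 30.4 and 27.2 after 72 h (−0.66 ± 0.18, adjusted p = 0.0254). PRIM2, with 117 and 141 CPM before PMA and 84 and 91.4 after 72 h, was the other that fell (−0.55 ± 0.17, adjusted p = 0.0374). These 72 h calls were fragile: 1 remained at most in any fit that left out a CTCF library of 0 h or 72 h, and with total counts both falls and the CDC45 rise were lost, while 6 genes were higher. By region, the 26 CTCF start regions gave 1 call at 6 h (ORC6, −1.43) and 0 by edgeR at 72 h (7 higher and 3 lower at an unadjusted p under 0.05), where 1.95% and 6.26% of the 6627 CTCF start regions of all genes were called in either direction.

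Rad21 summed over genes rose over 3 of 41 genes and fell over 4 at 72 h, against 13.2% higher and 7.08% lower of 27306 genes. POLA2 gave 36.9 and 26.1 CPM before PMA and 62.3 and 64 after 72 h (1.00 ± 0.20, adjusted p = 5.47e-05), and GMNN gave 40.3 and 33.9 before PMA and 55.8 and 86.7 after 72 h (0.93 ± 0.20, adjusted p = 0.00016). POLD1, the catalytic subunit of polymerase delta, gave 15 and 13.9 CPM before PMA and 23.3 and 23.1 after 72 h (0.68 ± 0.24, adjusted p = 0.0344). ORC5 gave 66.8 and 66.2 CPM before PMA and 33.7 and 29.6 after 72 h (−1.07 ± 0.20, adjusted p = 1.18e-05), with 3 of its Rad21 regions lower. In these 4 genes the 2 times did not overlap. RPA3 (−0.81), ORC4 (−0.69) and GINS4 were the others that fell. Leaving out 1 Rad21 library gave 1 to 9 calls, the lowest without the second 72 h library, when POLA2 alone was called, GMNN dropped to 0.59 (adjusted p = 0.303) and ORC5 had an adjusted p of 0.0509, and 3 without the first. POLD1, RPA3 and ORC4 each lost their call in at least 1 such fit. Total counts gave 2 higher and 10 lower, with medians of −0.37 for the replication genes and −0.24 for all genes. By region, POLD1 was higher at its start (0.88) and GMNN lower, so that 2 of 34 starts were called, against 9.7% of the 8569 Rad21 start regions of all genes.

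Peaks called by the authors in both libraries of a group overlapped all 42 genes for H3K27ac before PMA and after 6 h, and after 72 h all but GINS2 (41); 31.3%, 29.3% and 38.2% of all genes had such a peak at 0, 6 and 72 h. For Jun 30 genes had one at 0 h, 20 at 6 h and 39 at 72 h, while 25.5%, 18.9% and 43.8% of all genes had one. CTCF peaks overlapped 24, 19 and 22 genes at 0, 6 and 72 h, against 23.1%, 16.3% and 23% of all genes. Rad21 peaks overlapped 28 at 0 h and 19 at 72 h, against 22.3% and 18.6% of all genes. For Jun, CTCF and Rad21 the number of replication genes with a peak thus moved in the same direction as the share of all genes.

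Genes with and without an exact match to the E2F letters had similar medians at the start. Genes without a match may hold other forms of the motif, and control by E2F factors was not tested. The median log2 fold change of H3K27ac at the start was −1.10 for the 16 genes with a match and −1.10 for the 19 without at 72 h. For Jun it was −1.28 in 15 genes and −1.36 in 18. GINS3 and POLA2 have a match as well (their capitals are in the sequences printed above), and so have GINS2 and POLE.

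A list of 45 other genes of replication and nucleotide supply, which are not members, gave similar counts for H3K27ac and, at 72 h, for Jun. H3K27ac fell over 42 and rose over 1 at 72 h (median −0.96), fell over 38 and rose over 2 at 6 h (median −0.50), and Jun fell over 35 and rose over 1 at 72 h (median −0.93). Rad21 rose over 0 of them by edgeR and fell over 2 (2 each way at an unadjusted p under 0.05), against 3 and 4 of the members. CTCF at 72 h rose over 0 of 39 tested and fell over 5 by edgeR (2 and 7 at an unadjusted p under 0.05). Among the members it rose over 3 and fell over 2.

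The authors' deposited table gives its own log2 fold changes per region. It has negative values at 34 of the 35 H3K27ac start regions at 72 h (median −1.04) and at 34 at 6 h (median −0.63). The share of all starts with a negative authors' value is not given here. In the edgeR fits with TMM, 76.7% of H3K27ac start regions of all genes were below 0 at 72 h and 69.2% at 6 h. For Jun these shares were 80.4% and 69.5%, and at 72 h they were 40.6% for CTCF and 45.5% for Rad21. At Jun start regions the authors' deposited table is negative at 32 of 33 at 72 h (median −1.27) and at 31 at 6 h (median −0.43), and it is negative at 9 of 28 CTCF starts and 19 of 34 Rad21 starts at 72 h.

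**Figure D5:**
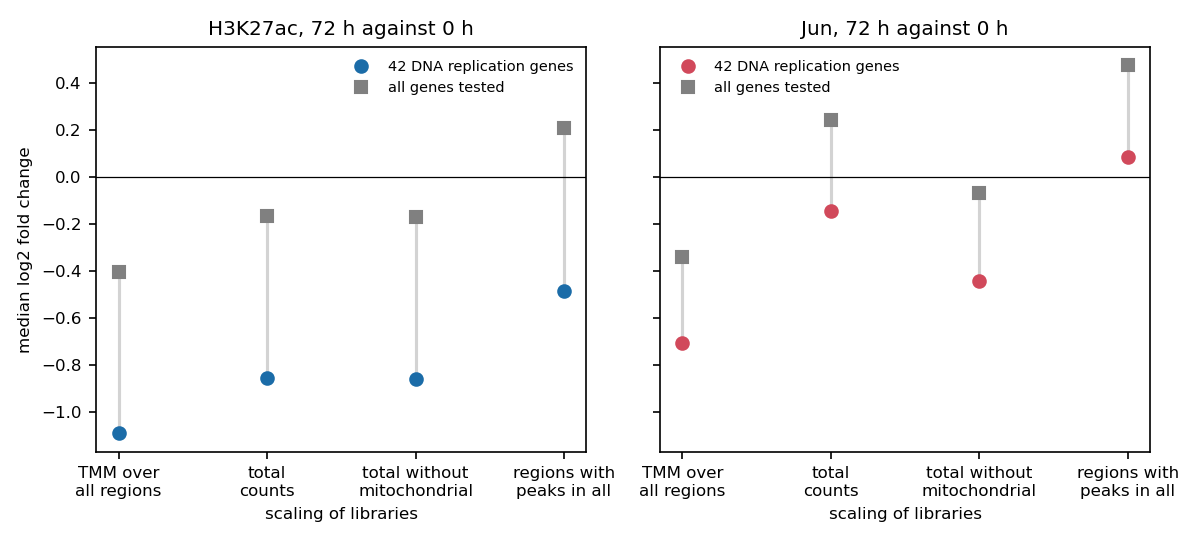
Circles are the median log2 fold change at 72 h against 0 h of the 42 replication genes and squares that of all genes tested, under 4 ways of scaling the libraries, for H3K27ac (left) and Jun (right). The squares move across 0 with the scaling, and the circle lies below its square by 0.69 for H3K27ac and by 0.37 to 0.39 for Jun. A change of scaling shifts both medians by nearly the same amount, so the steady gap is no test of the scaling.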

How the data were processed

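CUT&RUN libraries from untreated and PMA-treated K562 cells were analysed from 4 region tables and 22 peak lists. Per the submitters' processing notes, Trim Galore 0.4.3, BWA 0.7.17, SAMtools 1.9, deepTools 3.0.1, bedtools 2.26 and MACS2 were used, and hg19 and hg38 are both named. Regions were set against GRCh38 gene starts, and 35 genes had an H3K27ac region within 1000 bases of theirs. Start coordinates were taken as 0-based. The authors deposited raw read counts per region and library, with log2 fold changes and a class label per region that the authors computed by steps not given in the sources used here. Peak lists hold the −log10 q-value of each peak as deposited by the authors, and a peak was used as listed.

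Counts were summed over each gene (RefSeq span, GRCh38.p14, with 2 kb on each side) or kept per region, filtered with filterByExpr, scaled by TMM and tested with edgeR 4.0.16 (quasi-likelihood, R 4.3.3) over all genes or regions and all times of an antibody, with Benjamini-Hochberg adjustment and a threshold of 0.05. A region in 2 overlapping spans counts for both genes. Overlaps were found with GenomicRanges 1.54.1, and files were read with the data.table package (1.17.8). The scripts were tested on simulated data. Region totals ran from 2553677 to 27266241 counts per library, so CTCF and Rad21 carry less precision than H3K27ac. Counts are reads in regions, not independent molecules. Alternatives were other scalings, DESeq2 1.42.0, count filters, gene windows, start regions alone, a replicate block, and leaving out each library.

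The members and lists were chosen with earlier results of these data known. The genes described are the 42 members; full values go to a fixed set of central genes and, per antibody, to the 3 largest and 3 smallest fold changes among called members that do not overlap between groups and have at least the members' median level. Other genes and all single sites were named after their values were seen.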

Additional observations from a re-analysis of the deposited data

Results flagged for a closer look

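With TMM scaling, H3K27ac in 3 genes moved one way by 6 h and the opposite way afterwards. GINS3 was higher at 6 h than at 0 h (1.13 ± 0.08) and then changed by −0.36 on the log2 scale between 6 h and 72 h (adjusted p = 0.000487 in edgeR). RFC1 rose by 0.52 ± 0.08 and then changed by −0.38 (adjusted p = 0.000302), and RPA2 rose by 0.27 ± 0.09 and then changed by −0.34 (adjusted p = 0.00179). With factors from shared peak regions the later step kept its sign but lost its call in all 3 genes (GINS3 −0.10, RFC1 −0.12, RPA2 −0.086). Both steps share the 6 h libraries, and the difference between the steps was not tested.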

How the results depend on the processing

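Of 167 recomputed counts, 143 stayed within 1.5 times the reported value; of 633 recomputed values of single genes, 541 kept direction and side of the threshold, 75 lost and 7 gained a call, and 10 reversed. For H3K27ac at 72 h, CDC6 turned to 0.0098 with total counts and 0.0055 without the mitochondrial chromosome. With shared peak regions CDC6 (0.38) and MCM7 (0.19) were called higher, and MCM5 turned to 0.024. POLA2 was −0.97 at its start alone. At starts alone GMNN was −0.64 for CTCF at 6 h, CDC45 −0.057 for CTCF at 72 h, and POLA2 −0.19 and GMNN −1.08 for Rad21.

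Jun calls at 72 h (34 reported) became 18 with total counts and 18 with shared peak regions. CTCF calls at 72 h (5) became 2 without the mitochondrial chromosome, 1 with DESeq2, 10 from the 2 time points alone and 0 at starts by edgeR. Rad21 calls (7) became 12 with total counts, 11 without the mitochondrial chromosome, 4 with DESeq2 and 2 at starts. Lower start regions became 19 for H3K27ac at 6 h (30) under both added scalings, 5 for Jun at 6 h (10) with total counts, and 19 with total counts and 14 with shared peak regions for Jun at 72 h (31). The cause was not tested. Shares of all genes or starts are given for TMM only and do not apply to counts under other scalings.

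Leaving out 1 library gave 33 to 38, 38 to 39 and 34 to 38 H3K27ac calls (6 h, 72 h and between them), 9 to 16 and 29 to 30 Jun calls, 1 to 2 and 0 to 1 CTCF calls, 1 to 9 Rad21 calls, and 5 to 10 and 23 to 27 lower Jun starts. With a lone library in a group the spread came from the other groups. The replicate block gave 38, 39 and 37 H3K27ac calls, 13 and 32 for Jun, 1 and 6 for CTCF and 8 for Rad21, and 30 and 34 lower H3K27ac and 10 and 31 lower Jun starts. Same-numbered libraries were not treated as paired, and the labels do not say whether they share a culture. The correlation of their deviations was −0.02 to 0.16. Total counts without the mitochondrial chromosome, and all scalings of start regions, were chosen after seeing the data.

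No spike-in scale was used, so directions are relative to each library's other regions. CTCF and Rad21 regions often held under 100 counts, and with 2 libraries per group a missing call does not show that levels were alike.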

Other observations

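The authors' deposited table also gives a class label to each region. For H3K27ac it names 110 of the 135 member regions static, 14 late up, 4 early up, 5 early down and 2 late down. The mean H3K27ac level at 72 h was above that at 0 h in 9 of the 14 late up regions and in 2 of the 5 early down regions. Over all regions in the authors' deposited table, 72.8% of 22063 late up and 71.3% of 7711 early down regions were higher at 72 h. Of 61347 static regions 42.1% were higher. For Jun, all 6 member regions in the late up class were lower at 72 h, where 49.4% of 6902 such regions were higher. For Rad21, both member regions in the up class were higher at 72 h, as were 100% of all 1898 such regions. For CTCF, the 1 member region in the late up class was higher, as were 90.2% of 234. Among the early down H3K27ac regions and the late up Jun regions, then, the class and the direction of the counts did not go together. Late up H3K27ac regions were mostly higher, in about the same share as early down ones. No comparison above uses the labels.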
